A study of Mus musculus with 64 samples.

Results

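The epididymal white fat pad (eWAT, for white adipose tissue) of WT mice was compared between ZT 6, in the middle of the light phase, and ZT 18, in the middle of the dark phase. The comparison used 8 of the 64 RNA sequencing libraries of the series, 4 at each time, picked by their labels alone, and covered every gene of the count table. Zeitgeber time (ZT) counts the hours after lights on, and mice feed and move mostly in the dark. The whole series holds eWAT and brown adipose tissue (BAT) of WT and FANKO mice at ZT 6, ZT 10, ZT 18 and ZT 22, with 4 libraries in each of the 16 groups. FANKO mice lack *Nampt*, the rate-limiting enzyme of NAD salvage, in adipocytes.

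All mice were males of 2 to 4 months from the NamptTM1Jtree line, in which an exon of *Nampt* is flanked by loxP sites, crossed with Adiponectin-Cre mice. Littermates without Cre served as WT, so the WT libraries come from a floxed line rather than from a wild strain. Adiponectin-Cre acts in adipocytes, and the other cells of FANKO tissue keep *Nampt*. The mice had free access to food and stayed at room temperature. The labels give a replicate number for each library and do not say that replicates are separate animals, so the p values below measure only the spread between these libraries.

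The 8 libraries held 9542604 to 22476129 read pairs assigned to genes. Adipocyte markers were high and brown fat markers low. *Adipoq*, which encodes adiponectin and is also expressed in BAT, ranged from 2276 to 3370 CPM (counts scaled to the library size) over the 8 libraries. *Ucp1*, which marks brown fat, was at or below 2.95 CPM. The 8 listed brown adipocyte markers summed to 23.5 to 48.2 CPM. A few libraries stood apart. In ZT 18 replicate 4, 11.3% of the genes tested lay more than 2-fold from the mean of the other 3 libraries of its group, against 3.72% to 6.69% in the other 7. ZT 18 replicate 2 carried 399 CPM of germ cell genes, against 0.886 to 33.6 CPM elsewhere, and ZT 6 replicate 4 carried 50.8 CPM of epididymis genes, against 2.68 to 11.5 CPM. Genes of the mitochondrial genome took 5.15% to 5.79% of the counts in replicates 1 and 2 of both groups and 8.46% to 10.7% in replicates 3 and 4. Some results in which ZT 18 replicate 4 lay apart are therefore given with and without it. Others in which it was the highest or lowest ZT 18 library are given with all libraries only. Leaving out each library was planned, but the focus on this library followed from its values. Genes that pass only without it therefore describe the remaining libraries and are not separate support.

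The circadian clock of mammalian cells is a feedback loop of transcription factors. BMAL1, encoded by *Arntl*, pairs with CLOCK or NPAS2 at E-box sequences and drives the *Per* and *Cry* genes, whose proteins then block that pair. A second loop sets the repressors REV-ERBα and REV-ERBβ, encoded by *Nr1d1* and *Nr1d2*, against the ROR activators at the *Arntl* gene, and output factors such as DBP, TEF, HLF and NFIL3 pass the rhythm on to other genes. In white fat, clock, feeding and hormones shape fat synthesis during the active phase and the release of fatty acids during rest.

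The smallest p values between mid-light and mid-dark belonged to the clock genes *Nr1d1*, *Dbp* and *Cry1*. *Nr1d1* was 24.3-fold lower at ZT 18, *Dbp* was 5.78-fold lower, *Cry1* was 5.17-fold higher and *Nfil3* was 7.60-fold higher. Beyond the clock, 5 of 26 listed heat shock proteins and cochaperones, the glucocorticoid target *Tsc22d3*, *Nampt* and single genes of fat and glycogen metabolism rose, while the cold-inducible *Cirbp* and the immediate early gene *Junb* fell. Of 18393 genes tested, 142 (0.772%) passed the threshold, an FDR below 0.01. Of these, 106 (0.576% of the genes tested) were higher and 36 (0.196%) lower at ZT 18. *Tsc22d3* was the 1 gene of 18 on the glucocorticoid-responsive list that passed, and *Cirbp* the 1 of 2 on the cold-inducible list. Of 8 fits that each left out 1 library, *Tsc22d3* and *Nampt* passed in 8, *Cirbp* in 4, and *Junb* and the glycogen gene *Ppp1r3b* in 2. The test was edgeR's quasi-likelihood test on the 16 WT eWAT libraries, with Benjamini-Hochberg adjusted p values over the 18393 genes, and every adjusted p of ZT 18 against ZT 6 below comes from it unless stated. At an FDR below 0.05, 572 genes (3.11%) were higher and 293 (1.59%) lower.

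**Figure D1:**
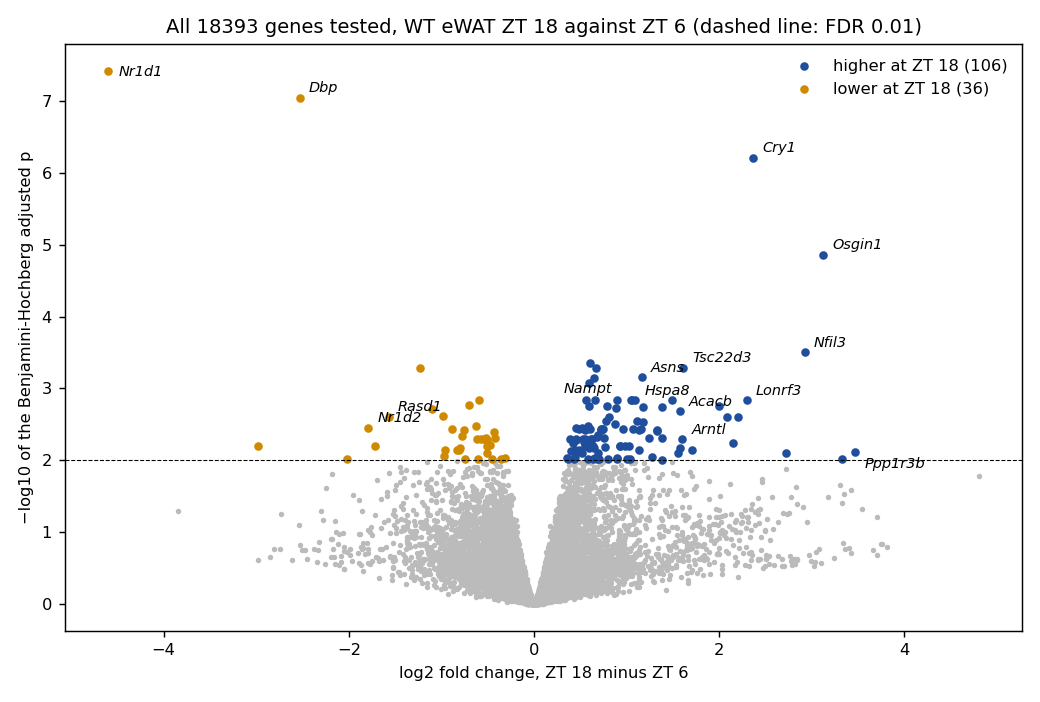
Each point is 1 of the 18393 genes tested, with the log2 fold change of ZT 18 over ZT 6 on the x axis and the −log10 of the adjusted p on the y axis. Colored points lie above the dashed line, an FDR of 0.01, with 106 higher and 36 lower at ZT 18, and *Nr1d1*, *Dbp*, *Cry1* and *Osgin1* stand above the rest.

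Most of these differences were modest. The median log2 fold change was 0.76 among the genes that rose and -0.75 among those that fell, and 39 of 106 and 9 of 36 differed by more than 2-fold. Nearly all were protein-coding, 101 of 106 and 33 of 36. The 4 libraries of one time did not overlap those of the other in 105 of 106 and 36 of 36, while over all genes tested 952 (5.18%) had every ZT 18 library above every ZT 6 library and 837 (4.55%) the reverse. The count of genes that passed depended on single libraries. It was 432 without ZT 18 replicate 4 (267 higher and 165 lower, with 133 of the 142 among them) and 31 without ZT 18 replicate 3 (25 higher and 6 lower). Without ZT 18 replicate 2 it was 245. Of the 47 named genes that passed, 18 did so in each of the 8 fits that left out 1 library. Between 18 and 28 of the 47 were lost without any one ZT 6 library or without ZT 18 replicate 1 or 3, and 1 or 2 without the other ZT 18 libraries. When the fit held the 8 libraries alone, 6 genes passed, *Nr1d1*, *Dbp*, *Cry1*, *Osgin1* and *Slc7a8* among them, and 661 passed with DESeq2 on the 16 libraries. Scaled by library size alone, 55 genes passed, 50.9% of them higher in place of 74.6%, and the median log2 fold change of all genes moved from 0.00 to -0.11.

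Of the 13 core clock genes tested, 5 passed the threshold, 3 higher (*Cry1* and *Arntl* among them) and 2 lower (*Nr1d1* and *Nr1d2*). Over all genes tested, 0.576% were higher and 0.196% lower. Values below are CPM in replicates 1 to 4 in that order, and each log2 fold change is ZT 18 over ZT 6 ± its standard error. *Nr1d1* (chr11:98767932-98775333, minus strand) measured 104, 77.3, 117 and 88.5 CPM at ZT 6 and 3.37, 3.84, 2.33 and 5.99 CPM at ZT 18. Every ZT 18 library was far below every ZT 6 library, and the log2 fold change was -4.60 ± 0.24, adjusted p = 3.79e-08. Its relative *Nr1d2* (chr14:18204054-18239127, minus strand) measured 137, 129, 129 and 105 CPM against 34.3, 23.4, 21.2 and 64.7 CPM. The groups did not overlap, replicate 4 lay highest at ZT 18, and the log2 fold change was -1.79 ± 0.28, adjusted p = 0.00352.

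*Cry1* (chr10:85131700-85185064, minus strand), the repressor of the CLOCK and BMAL1 pair, measured 6.81, 7.88, 4.91 and 5.78 CPM at ZT 6 and 29, 36.9, 36.7 and 31 CPM at ZT 18. All 4 ZT 18 libraries were above all 4 ZT 6 libraries (log2 fold change 2.37 ± 0.16, adjusted p = 6.18e-07). *Arntl* (chr7:113207465-113314126, plus strand) measured 9.67, 10.3, 12 and 20.2 CPM and then 39.6, 47.2, 52.9 and 18.8 CPM. It rose (1.60 ± 0.27, adjusted p = 0.00507), but ZT 18 replicate 4 fell inside the ZT 6 range, and without it the value was 1.82 ± 0.20, adjusted p = 0.000241. *Nr1d1* and *Cry1* passed in each of the 8 fits that left out 1 library. The call of *Arntl* was lost without ZT 6 replicate 1, 2 or 3 or ZT 18 replicate 1 or 3, and that of *Nr1d2* was lost without ZT 6 replicate 1 or 3 or ZT 18 replicate 1 or 3.

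The core clock genes that follow did not pass. *Per2* measured 21, 28.7, 16.9 and 11.8 CPM at ZT 6 and 44.4, 46.6, 46.4 and 93.6 CPM at ZT 18, so the groups did not overlap, yet the adjusted p was 0.0162 (log2 fold change 1.55 ± 0.33), with replicate 4 the highest of the ZT 18 libraries and the lowest of the ZT 6 libraries. *Per3* (-0.61 ± 0.15, adjusted p = 0.0337) and *Ciart* (-1.03 ± 0.25, adjusted p = 0.0283) missed the threshold. *Per1* measured 40.5, 39.2, 29.7 and 21.7 CPM and 17.3, 22.3, 14.2 and 57.3 CPM, and its log2 fold change of -0.23 ± 0.33 became -0.89 ± 0.22, adjusted p = 0.0198 without ZT 18 replicate 4. *Clock*, *Npas2*, *Cry2* and *Rora* lay between -0.45 and 0.16, with adjusted p values from 0.289 to 0.678. *Rorb* was too low to be tested.

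Of 11 clock output and clock-linked genes, 2 rose, *Nfil3* and *Usp2*, and 1 fell, *Dbp*, against 0.576% and 0.196% of all genes tested. *Dbp* (chr7:45705088-45710203, plus strand), an activator at D-box sequences, measured 49.5, 51.8, 54.3 and 43.1 CPM at ZT 6 and 11.2, 7.18, 9.66 and 6.47 CPM at ZT 18 (log2 fold change -2.53 ± 0.15, adjusted p = 8.97e-08). *Nfil3* (chr13:52967209-52981073, minus strand), a repressor at the same sequences, moved the other way, from 2.52, 3.58, 3.16 and 5.64 CPM to 33.9, 29.9, 34.3 and 15.8 CPM. The groups did not overlap, although replicate 4 was the lowest ZT 18 library and the highest ZT 6 library (2.93 ± 0.32, adjusted p = 0.000311). *Usp2*, which encodes a deubiquitinase, measured 7.77, 12.5, 7.64 and 7.91 CPM and 19.6, 26, 18.1 and 30.4 CPM (1.38 ± 0.20, adjusted p = 0.00182, lost without ZT 6 replicate 1). *Tef* (-0.016 ± 0.13), *Hlf* (0.51 ± 0.18), *Bhlhe40* (-0.11 ± 0.41), *Bhlhe41* (-0.56 ± 0.25), *Fbxl21*, *Csnk1d* and *Csnk1e* did not pass, with adjusted p values of at least 0.102. Exons of *Nr1d1* overlap *Thra* on the opposite strand, those of *Dbp* overlap *Sphk2*, and those of *Usp2* and *Arntl* overlap unnamed antisense genes. Of the 142 genes that passed, 42 have an annotated exon of another gene on the opposite strand. The strand setting of the counting is not given in the sources used here, so reads of such partners may have been counted together.

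**Figure D2:**
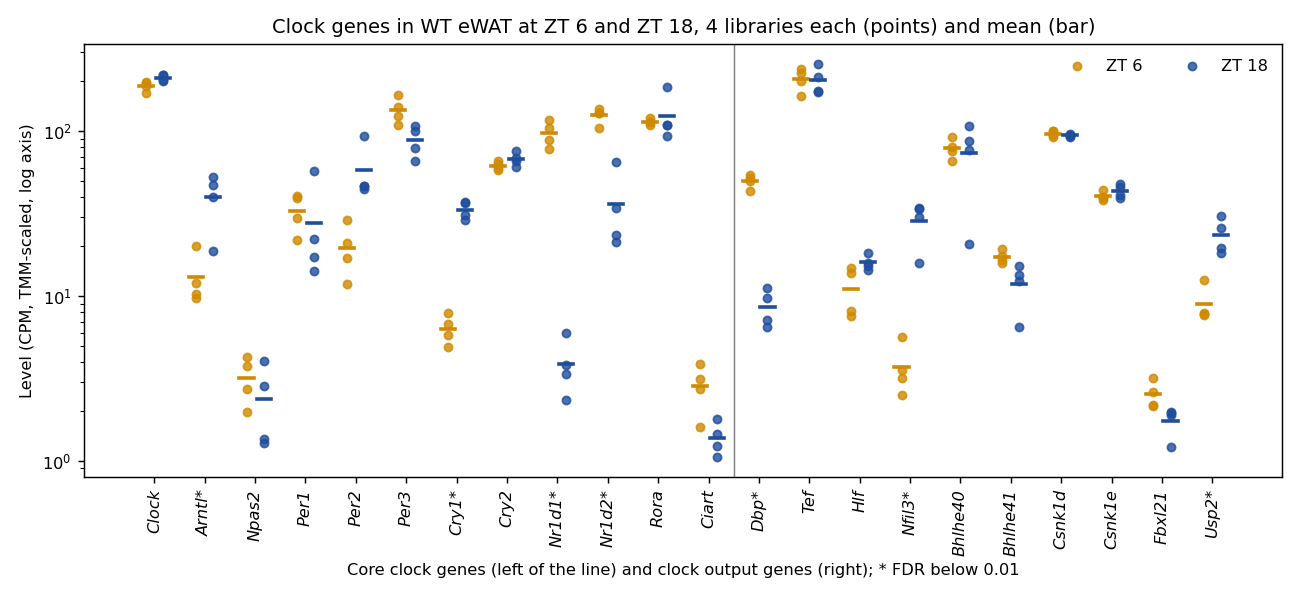
Levels of 12 core clock genes (left of the line) and 10 clock output and clock-linked genes (right) in CPM on a log axis, with 4 libraries at ZT 6 and 4 at ZT 18 as points and their means as bars. The groups of *Nr1d1*, *Nr1d2*, *Dbp*, *Cry1* and *Nfil3* separate fully, while *Arntl* has 1 ZT 18 library among the ZT 6 libraries, and an asterisk marks an FDR below 0.01.

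Promoters of the clock and output genes that passed, and of 4 of the 5 heat shock genes that did (*Chordc1*, which the naming rule does not reach, was not looked up), were read for sequence words known from these pathways, to show which of them carry one next to the start site. The 300-base windows run from 250 bases before to 50 bases after the start site and come from RefSeq on GRCm38.p6. Of 12 genes, 10 had a window and 4 held a word. The words, searched on both strands, none inside another, were the E-box CACGTG (in 7.15% of all 32851 promoters), the ROR response element core TAGGTCA or TGGGTCA (6.45%), the D-box TTATGTAA or TTACGTAA (1.06%), the cAMP response element TGACGTCA (1.79%) and the heat shock element of alternating GAA and TTC units (0.603%). The 4 windows are shown with the word in capitals, as examples of a rise at ZT 18 with a match nearby.
Nfil3: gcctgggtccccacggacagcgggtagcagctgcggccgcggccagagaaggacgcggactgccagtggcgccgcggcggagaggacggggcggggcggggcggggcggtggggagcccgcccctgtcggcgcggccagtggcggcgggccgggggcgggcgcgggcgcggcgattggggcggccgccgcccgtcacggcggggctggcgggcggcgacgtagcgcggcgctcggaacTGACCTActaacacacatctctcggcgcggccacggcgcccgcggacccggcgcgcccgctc
Cry1: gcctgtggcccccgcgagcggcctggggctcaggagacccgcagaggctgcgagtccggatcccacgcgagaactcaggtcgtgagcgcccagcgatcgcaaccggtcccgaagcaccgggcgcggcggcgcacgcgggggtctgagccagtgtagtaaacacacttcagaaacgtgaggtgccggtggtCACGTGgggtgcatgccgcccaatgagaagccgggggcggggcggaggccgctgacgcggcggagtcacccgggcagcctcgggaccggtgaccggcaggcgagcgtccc
Arntl: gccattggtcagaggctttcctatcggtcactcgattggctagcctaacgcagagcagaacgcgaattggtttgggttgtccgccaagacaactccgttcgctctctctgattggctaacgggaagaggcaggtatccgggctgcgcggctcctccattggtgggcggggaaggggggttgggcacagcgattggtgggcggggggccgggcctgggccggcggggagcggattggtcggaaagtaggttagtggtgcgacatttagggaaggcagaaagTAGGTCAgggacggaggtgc
Hsph1: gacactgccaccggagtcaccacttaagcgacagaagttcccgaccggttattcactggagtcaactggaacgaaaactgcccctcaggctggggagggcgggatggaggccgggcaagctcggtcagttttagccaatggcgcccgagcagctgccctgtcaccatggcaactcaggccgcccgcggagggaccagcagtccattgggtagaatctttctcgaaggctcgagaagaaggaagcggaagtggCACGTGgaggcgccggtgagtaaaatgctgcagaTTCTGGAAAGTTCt
In *Nfil3* (chr13:52980990-52981289, minus strand) the capitals mark the ROR core read on the opposite strand, from 12 bases before the start site. In *Cry1* (chr10:85185005-85185304, minus strand) they mark an E-box from 60 bases before it. In *Arntl* (chr7:113207261-113207560, plus strand; 1 of 2 promoters) they mark a ROR core from 31 bases after it. In *Hsph1* (chr5:149636287-149636586, minus strand; 1 of 2 promoters) they mark an E-box from 3 bases and a heat shock element from 37 bases after it. None of these words lay in the windows of *Nr1d1*, *Dbp*, *Nr1d2*, *Usp2*, *Dnaja1* or *Fkbp4*. A match describes the letters of the window and is not evidence of a bound site.

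Of 18 glucocorticoid-responsive genes, 1 passed. *Tsc22d3* (chrX:140539528-140600659, minus strand), which encodes the glucocorticoid-induced leucine zipper GILZ, measured 114, 121, 123 and 72.3 CPM at ZT 6 and 347, 261, 290.2 and 424 CPM at ZT 18. All 4 ZT 18 libraries were at least 2-fold above the highest ZT 6 library (log2 fold change 1.62 ± 0.19, adjusted p = 0.000517). None of the other 17 passed. *Fkbp5*, a cochaperone of the glucocorticoid receptor, measured 33.7, 101, 51.6 and 62.8 CPM and 171, 79.3, 93.5 and 179 CPM with overlapping ranges (1.06 ± 0.30, adjusted p = 0.0567). The median log2 fold change of the list was 0.23 with all libraries and -0.13 without ZT 18 replicate 4, in which the median member lay 0.76 above its mean over the 8 libraries (other ZT 18 libraries -0.22 to 0.14, on the log2 scale). *Zbtb16* illustrates this, at 71.4, 87.7, 69.9 and 240.2 CPM at ZT 18 against 76.8, 106, 106 and 100.2 CPM at ZT 6.

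Immediate early genes, which answer to stimuli within minutes, gave 1 gene lower and none higher of 20. *Junb*, a subunit of AP-1, measured 16.6, 15.3, 15.7 and 12.4 CPM at ZT 6 and 5.15, 9.24, 6.42 and 9.65 CPM at ZT 18 (-0.97 ± 0.18, adjusted p = 0.00883, lost without ZT 6 replicate 1, 2, 3 or 4 or ZT 18 replicate 1 or 3), and its exons overlap *Prdx2* on the opposite strand. *Egr1* (-1.24 ± 0.28, adjusted p = 0.0201) and *Fosl2* (0.57 ± 0.12, adjusted p = 0.0169) missed the threshold in opposite directions, and *Fos* measured 3.20, 5.44, 5.56 and 6.22 CPM against 2.31, 5.01, 3.10 and 8.45 CPM. *Cirbp*, an RNA-binding protein induced by mild cold, fell from 37.3, 48.3, 43.1 and 46.3 CPM to 27.7, 24.5, 23.6 and 18.7 CPM (-0.89 ± 0.14, adjusted p = 0.00363, lost without ZT 6 replicate 2, 3 or 4 or ZT 18 replicate 3). The other cold-inducible gene of the list, *Rbm3*, had a log2 fold change of -0.047 ± 0.11.

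Heat shock proteins and their cochaperones, which help proteins fold, rose in 5 of 26 genes tested and fell in none, against 0.576% and 0.196% of all genes. At an FDR below 0.05, 13 were higher and none lower, against 3.11% and 1.59% of all genes. The median log2 fold change was 0.50, against 0.00 over all genes tested, and 23 of 26 were above 0. In 13 of 26, every ZT 18 library was above every ZT 6 library, as in 5.18% of all genes. This list, like the others, was chosen with earlier results of these data known. An excess over all genes may therefore be partly built in. *Hspa8* (chr9:40800984-40810087, plus strand), the constitutive HSC70, measured 346, 303, 321 and 261 CPM at ZT 6 and 549.9, 577, 778 and 725 CPM at ZT 18, without overlap (1.10 ± 0.15, adjusted p = 0.00144). *Hsph1* (chr5:149614287-149636376, minus strand), a nucleotide exchange factor for HSC70, measured 16.9, 24.9, 21.1 and 17.3 CPM and 29.2, 43.6, 63.2 and 99.2 CPM, with a wide spread at ZT 18 (1.55 ± 0.28, adjusted p = 0.00801, lost without ZT 6 replicate 1, 2, 3 or 4 or ZT 18 replicate 3). Its call was also lost with limma-voom (adjusted p = 0.019), robust dispersion (adjusted p = 0.0124) and library size alone (adjusted p = 0.0207).

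The HSC70 partner *Dnaja1* (0.72 ± 0.12, adjusted p = 0.0038) and the HSP90 cochaperones *Chordc1* (0.76 ± 0.13, adjusted p = 0.00487) and *Fkbp4* (0.55 ± 0.088, adjusted p = 0.0038) were the other 3 genes that passed. *Dnaja1* measured 76, 69, 80.4 and 74.1 CPM and 119, 112, 141 and 122 CPM, and *Fkbp4* measured 58.5, 61.1, 66.1 and 60.04 CPM and 81.9, 85.6, 98.4 and 93.7 CPM. Each separated the groups in full, by less than 2-fold. The call of *Dnaja1* was lost without ZT 6 replicate 1, 2, 3 or 4 or ZT 18 replicate 1 or 3, and that of *Fkbp4* was lost without ZT 6 replicate 1, 2 or 4 or ZT 18 replicate 3. The HSP40 gene *Dnajb1*, a classical heat shock target, had a log2 fold change of 0.57 ± 0.12, adjusted p = 0.016, and *Ahsa1*, *Stip1*, *Hspa4l* and *Hspb1* lay between 0.44 and 0.62 without passing. Outside the list and chosen after their values were seen, the heat shock protein and cochaperone genes *Hspb8* (0.90 ± 0.17, adjusted p = 0.00956), *Dnaja2* (0.48 ± 0.076, adjusted p = 0.00363) and *Dnajb6* (0.58 ± 0.10, adjusted p = 0.00623) rose. Picked by their values, they are not separate support for the list, and other unlisted genes of these families were not counted. Without ZT 18 replicate 4, 5 genes of the list passed (median 0.41), against 432 of all 18770 genes tested in that fit. Without ZT 18 replicate 3, 1 passed, against 31 of 18861. Scaled by library size alone, 1 passed (median 0.39), against 55 of 18393.

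Of 26 genes of the endoplasmic reticulum chaperones and the unfolded protein response, 2 rose and none fell (median 0.22). *Hspa5*, which encodes the ER chaperone BiP, measured 357, 350.0, 367 and 348 CPM at ZT 6 and 542, 509.9, 621 and 476 CPM at ZT 18 (0.60 ± 0.11, adjusted p = 0.00674, lost without ZT 6 replicate 1, 2, 3 or 4 or ZT 18 replicate 1 or 3). *Hyou1*, its nucleotide exchange factor, measured 80.6, 86.4, 93.7 and 86.6 CPM and 109, 112, 129 and 127 CPM (0.46 ± 0.072, adjusted p = 0.00351, lost without ZT 6 replicate 1, 2 or 4 or ZT 18 replicate 3). The ranges of both were narrow and apart. Ribosome biogenesis gave 2 genes higher of 24 (8 at an FDR below 0.05, none lower at either, median 0.29), namely *Nolc1*, a nucleolar phosphoprotein (0.59 ± 0.091, adjusted p = 0.00335, lost without ZT 6 replicate 1, 2 or 4 or ZT 18 replicate 3), and *Polr1a*, the largest subunit of RNA polymerase I (0.40 ± 0.072, adjusted p = 0.00737, lost without ZT 6 replicate 1, 2, 3 or 4 or ZT 18 replicate 1 or 3). In 11 of these 24 genes the ZT 18 libraries were all above the ZT 6 libraries, as in 5.18% of all genes tested. In 1 they were all below, as in 4.55%. Over all genes tested, 0.576% were higher at an FDR below 0.01 and 3.11% at an FDR below 0.05. Scaled by library size alone, none of these 4 genes passed.

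Of 18 genes of the ATF4 and amino acid group, 1 passed. *Asns* (chr6:7675169-7693254, minus strand), which makes asparagine, rose, from 79.6, 64.6, 77.9 and 72.9 CPM to 172, 119.6, 152 and 219 CPM (1.17 ± 0.14, adjusted p = 0.000693). It passed in each of the 8 fits that left out 1 library. *Atf4* itself measured 67.1, 69.3, 54.7 and 56 CPM and 95.6, 96.9, 82.3 and 74 CPM (0.50 ± 0.13, adjusted p = 0.045), and the median of the group was 0.06.

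**Figure D3:**
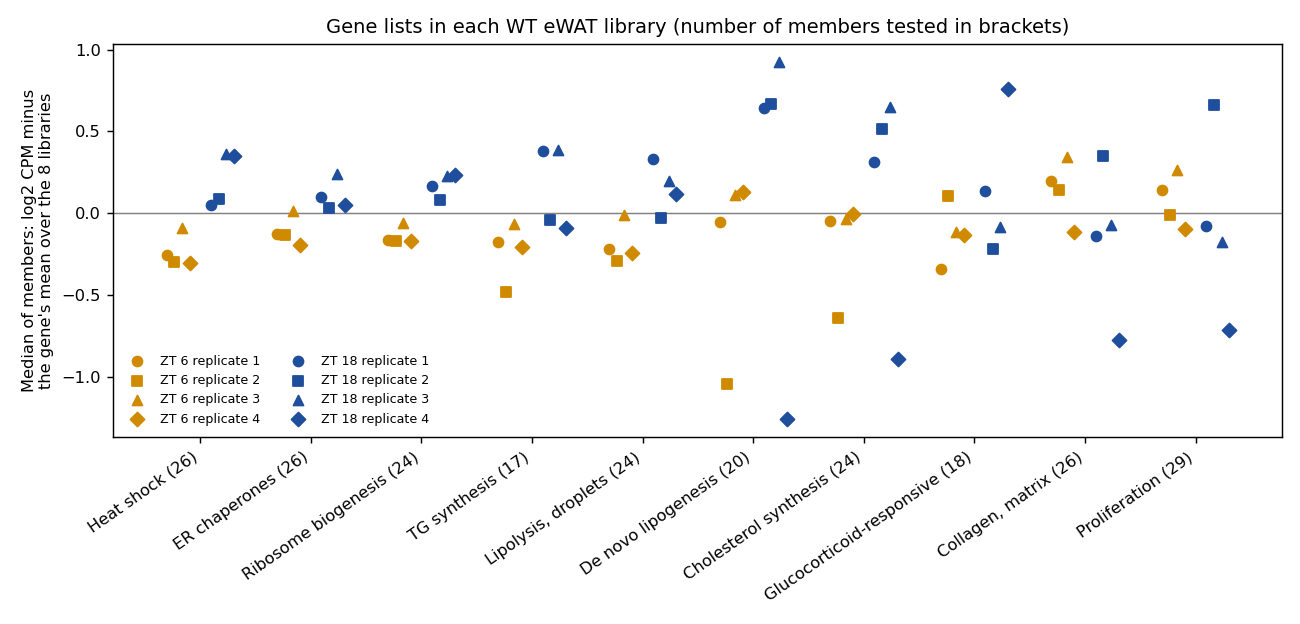
Each point is 1 library and gives the median, over the tested members of a gene list, of log2 CPM minus the mean of that gene over the 8 libraries. Heat shock and ribosome biogenesis genes separate the 2 times in every library, while ZT 18 replicate 4 lies at -1.26 for de novo lipogenesis and 0.76 for glucocorticoid-responsive genes, far from the other ZT 18 libraries.

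Of 20 genes of de novo lipogenesis, the synthesis of fatty acids from glucose, 1 passed. *Acacb* (chr5:114146535-114250761, plus strand), the acetyl-CoA carboxylase of the mitochondrial surface, whose product malonyl-CoA restrains fatty acid oxidation, measured 196, 157, 237 and 333 CPM at ZT 6 and 715, 519, 856 and 663 CPM at ZT 18. The ranges were apart and the log2 fold change was 1.58 ± 0.23, adjusted p = 0.00206, lost without ZT 6 replicate 1 or ZT 18 replicate 3. Other members had 2 low libraries. *Fasn*, the fatty acid synthase, measured 13209.7, 3038, 15129 and 19049.9 CPM at ZT 6 and 17562, 22499, 26896 and 1800.1 CPM at ZT 18, so that ZT 6 replicate 2 and ZT 18 replicate 4 were each far below their groups (0.45 ± 0.60, adjusted p = 0.701). *Elovl6*, which lengthens palmitate, had the same 2 low libraries, at 268, 38, 289 and 927 CPM and 513, 385, 729.9 and 18.7 CPM.

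Per library, the median lipogenesis gene lay -1.26 from its mean in ZT 18 replicate 4 (other ZT 18 libraries 0.65 to 0.93) and -1.05 in ZT 6 replicate 2 (other ZT 6 libraries -0.05 to 0.13), on the log2 scale. With all libraries 18 of 20 genes had a positive log2 fold change, with a median of 0.48. Without ZT 18 replicate 4, 267 of all 18770 genes tested were higher and 165 lower. In that fit the median of the list was 0.80 and 3 of its genes passed. These were *Acacb*, *Srebf1*, the transcription factor of the pathway (1.05 ± 0.22, adjusted p = 0.00972), and *Pnpla3* (1.14 ± 0.20, adjusted p = 0.00391). None passed without ZT 18 replicate 3. What set those 2 libraries apart was not tested.

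Cholesterol synthesis showed the same pair of low libraries, with list medians of -0.89 in ZT 18 replicate 4 and -0.64 in ZT 6 replicate 2. *Fdft1*, squalene synthase, was the 1 gene of 24 that rose, from 53.5, 39.4, 48.7 and 46.6 CPM to 99.5, 82.3, 93.9 and 69.8 CPM (0.88 ± 0.13, adjusted p = 0.00316, lost without ZT 6 replicate 2, 3 or 4 or ZT 18 replicate 1 or 3), and its exons overlap *Ctsb* on the opposite strand. *Msmo1*, a sterol oxidase, was among the genes that passed without ZT 18 replicate 4 (0.93 ± 0.17, adjusted p = 0.00454). None of the 24 passed without ZT 18 replicate 3.

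Genes of insulin and glucose handling gave 2 that rose and none that fell of 25, against 0.576% and 0.196% of all genes tested. *Ppp1r3b* (chr8:35375739-35388139, plus strand), which brings protein phosphatase 1 to glycogen, measured 24.1, 7.49, 17.7 and 18.7 CPM at ZT 6 and 233, 224, 266 and 24.6 CPM at ZT 18. In ZT 18 replicate 4 it stayed close to the highest ZT 6 library, while the other 3 were far higher (3.47 ± 0.63, adjusted p = 0.00756, lost without ZT 6 replicate 1, 2, 3 or 4 or ZT 18 replicate 1 or 3). *Pik3r1*, the regulatory subunit of PI3-kinase, measured 406, 427, 440.1 and 429.7 CPM and 1020.4, 838, 1163 and 674 CPM, without overlap (1.12 ± 0.17, adjusted p = 0.00282, lost without ZT 6 replicate 1, 3 or 4 or ZT 18 replicate 1 or 3). *Irs2*, an adaptor of the insulin receptor, measured 62.7, 90.2, 72.9 and 70.6 CPM at ZT 6 and 24.5, 24.5, 22.8 and 109 CPM at ZT 18. Its first 3 ZT 18 libraries lay below all ZT 6 libraries and replicate 4 above them, so the log2 fold change of -0.71 ± 0.40, adjusted p = 0.314 became -1.65 ± 0.19, adjusted p = 0.000297 without replicate 4.

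Without ZT 18 replicate 4, the library that stood apart in *Ppp1r3b* and *Irs2*, 267 of all 18770 genes tested were higher and 165 lower. Of this list, 4 genes were higher and 2 lower in that fit. Beside *Ppp1r3b* (3.83 ± 0.46) and *Pik3r1* (1.22 ± 0.15), the higher ones were *Ppp1r3c*, another glycogen-targeting subunit (1.59 ± 0.25, adjusted p = 0.00285), and *Irs1* (0.58 ± 0.10, adjusted p = 0.00466). The lower ones were *Irs2* and *Txnip*, a brake on glucose uptake (-0.98 ± 0.14, adjusted p = 0.00156). *Pfkfb3*, a driver of glycolysis, measured 806, 679.9, 888 and 626 CPM and 379, 415, 299 and 256 CPM and missed the threshold in both fits (-1.15 ± 0.22, adjusted p = 0.0106). None of the 25 passed without ZT 18 replicate 3.

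Triglyceride synthesis gave no gene past the threshold of 17 (5 higher and none lower at an FDR below 0.05, median 0.44, 13 above 0). Over all genes tested, 3.11% were higher and 1.59% lower at an FDR below 0.05. *Lpin1*, which makes diacylglycerol, measured 461, 404, 521 and 449 CPM and 818, 716, 878 and 909.9 CPM (0.86 ± 0.18, adjusted p = 0.0149). *Gpam*, the first acyltransferase of the pathway, measured 484, 347, 474 and 453 CPM and 917, 667, 855 and 629.5 CPM (0.80 ± 0.18, adjusted p = 0.0181). Neither had overlapping groups. Of 24 genes of lipolysis, lipid droplets and lipid uptake, *G0s2*, the inhibitor of the lipase ATGL, rose from 129, 128, 132 and 117 CPM to 283, 228, 359 and 238 CPM (1.13 ± 0.20, adjusted p = 0.00726, lost without ZT 6 replicate 1, 2, 3 or 4 or ZT 18 replicate 1 or 3). The lipase itself, *Pnpla2*, had a log2 fold change of 0.76 ± 0.17, adjusted p = 0.0231 and its coactivator *Abhd5* of 0.72 ± 0.14, adjusted p = 0.0111. *Lipe*, the hormone-sensitive lipase, was at -0.033 ± 0.11 and *Lpl*, the lipoprotein lipase, at 0.16 ± 0.18. Without ZT 18 replicate 4, 267 of all 18770 genes tested were higher and 165 lower. In each of these lists 2 genes passed in that fit, *Gpam* and *Agpat1* in the first, *G0s2* and *Plin2* in the second. None did without ZT 18 replicate 3. Up to 4 genes of the second list passed when another single library was left out.

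Fatty acid oxidation and thermogenesis gave no gene past the threshold of 20. *Slc25a20* (0.63 ± 0.14, adjusted p = 0.0223) and *Cpt2* (0.57 ± 0.15, adjusted p = 0.0436), of the carnitine shuttle, came nearest. *Ucp3* (1.24 ± 0.17, adjusted p = 0.00131) and *Dio2*, which activates thyroid hormone (2.68 ± 0.50, adjusted p = 0.0053), passed without ZT 18 replicate 4. None of the 8 protein genes of the mitochondrial genome that could be tested passed, with medians from -0.49 to 0.42 per library.

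In NAD metabolism, 2 of 23 genes rose, against 0.576% of all genes tested. *Nampt* (chr12:32819545-32853349, plus strand) measured 135, 145, 159 and 147 CPM at ZT 6 and 375, 221, 321 and 307 CPM at ZT 18. The ZT 6 libraries were close together and all ZT 18 libraries above them (log2 fold change 1.06 ± 0.14, adjusted p = 0.00144). *Nadk*, the NAD kinase that makes NADP, measured 256, 207, 251 and 231 CPM and 359, 289, 348 and 359 CPM (0.52 ± 0.095, adjusted p = 0.00793, lost without ZT 6 replicate 1, 2, 3 or 4 or ZT 18 replicate 1 or 3). The sirtuins, the PARP enzymes, the NMNAT enzymes and the other members did not pass, and the median of the list was 0.01. *Nampt* passed in each of the 8 fits that left out 1 library.

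Of 20 adipocyte transcription factors and nuclear receptors, 1 rose and 1 fell, against 0.576% and 0.196% of all genes tested. Both passed in each of the 8 fits that left out 1 library. *Nr1h3*, the oxysterol receptor LXRα, measured 80.5, 66.3, 73.6 and 73.1 CPM and 137, 119, 135 and 117 CPM (0.79 ± 0.11, adjusted p = 0.00175). *Thra*, thyroid hormone receptor α, measured 97.8, 89.98, 103 and 103 CPM and 64.4, 68.9, 69.9 and 57 CPM (-0.60 ± 0.080, adjusted p = 0.00144). *Thra* lies opposite *Nr1d1*, and both fell. In WT BAT the log2 fold change was -3.36 for *Nr1d1* and 0.08 for *Thra*, and in FANKO eWAT it was -4.18 and -0.19. Whether the 2 genes share reads was not tested. *Pparg*, the master factor of adipocytes, was at 0.22 ± 0.17 (adjusted p = 0.456).

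None of 14 adipokines passed. *Lep* measured 1261, 934, 1098 and 393 CPM at ZT 6 and 1971, 2082, 1424 and 606 CPM at ZT 18 (0.72 ± 0.35, adjusted p = 0.237), with replicate 4 the lowest at both times. *Adipoq* had a log2 fold change of 0.21 ± 0.15, adjusted p = 0.427. *Angptl8*, which inhibits lipoprotein lipase and responds to feeding, measured 7.22, 3.87, 8.07 and 11.9 CPM and 75.9, 118, 102 and 6.03 CPM. Replicate 4 was again the exception, and the log2 fold change of 3.30 ± 0.75, adjusted p = 0.0221 became 3.68 ± 0.56, adjusted p = 0.00222 without it. *Nrg4* (0.82 ± 0.12, adjusted p = 0.00156) and *Serpina3c* (0.57 ± 0.11, adjusted p = 0.00725) also passed without that library.

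None of 29 proliferation genes, 26 collagen and matrix genes or 20 interferon-stimulated genes passed. The mitotic kinase gene *Wee1*, also a clock target, came nearest in the first (1.23 ± 0.24, adjusted p = 0.0126), *Mmp14*, a membrane metalloproteinase, in the second (-0.55 ± 0.11, adjusted p = 0.011) and *Rsad2* in the third (0.63 ± 0.24, adjusted p = 0.144). The collagen list had a median of -0.29, with 22 of 26 below 0. It was -0.13 without ZT 18 replicate 4, where *Mmp14* was among the genes that passed (-0.58 ± 0.12, adjusted p = 0.0094). For proliferation the medians were -0.11 and 0.08, so the sign depended on that library.

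Sums of cell type markers did not separate the times. Over 13 marker lists, the mitochondrial share and the total count (15 measures), no exact two-sided permutation test reached p = 0.05, and the smallest p it can give for 4 against 4 is 0.0286. Mature adipocyte markers, all 10 detected, summed to 21922 to 28743 CPM at ZT 6 and 23964 to 34077 CPM at ZT 18 (exact p = 0.114). B and plasma cell markers summed to 315 to 472 CPM and 218 to 362 CPM (exact p = 0.0571, 0.429 after Benjamini-Hochberg adjustment). Macrophage markers stayed within 1158 to 1466 CPM and 1209 to 1308 CPM. In bulk tissue, fewer cells of a type and less RNA per cell cannot be told apart.

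Outside the lists, *Osgin1* (chr8:119434124-119446256, plus strand), a stress-responsive growth inhibitor, made the largest rise after *Ppp1r3b* among the protein-coding genes that passed, had no overlap and reached 1 in mean log2 CPM. It measured 2.18, 3.96, 1.85 and 3.51 CPM at ZT 6 and 22.1, 26.5, 36.3 and 19.2 CPM at ZT 18, and the lowest ZT 18 library was well above the highest ZT 6 library (3.13 ± 0.27, adjusted p = 1.38e-05). *Lonrf3*, a RING finger protein, measured 2.32, 5.44, 1.85 and 2.71 CPM and 14.8, 16.5, 13.4 and 18.2 CPM (2.30 ± 0.31, adjusted p = 0.00144). *Tsku*, a secreted leucine-rich protein, measured 7.08, 9.55, 7.75 and 6.96 CPM and 57.6, 25, 45.8 and 17.7 CPM, with a wide ZT 18 range (2.21 ± 0.33, adjusted p = 0.00246). *Arxes2*, an adipocyte gene, measured 59.6, 62.1, 72.8 and 57.1 CPM and 202, 95, 182 and 227 CPM (1.49 ± 0.20, adjusted p = 0.00144). *Ttpa*, the transfer protein of vitamin E (1.38 ± 0.23, adjusted p = 0.00495), and *Cth*, which makes cysteine (1.39 ± 0.26, adjusted p = 0.00995), rose as well. *Osgin1*, *Lonrf3* and *Arxes2* passed in each fit that left out 1 library. The call of *Tsku* was lost without ZT 6 replicate 1, 3 or 4 or ZT 18 replicate 3, that of *Ttpa* was lost without ZT 6 replicate 1, 2, 3 or 4 or ZT 18 replicate 1 or 3, and that of *Cth* was lost without ZT 6 replicate 1, 2, 3 or 4 or ZT 18 replicate 1, 3 or 4.

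The falls outside the lists named by the same rule were in genes of varied function. *Tnfsf15*, a cytokine gene below the limit on level and named after its values were seen, fell further, from 0.915 ± 0.328 to 0.109 ± 0.0733 CPM (mean ± SD, n = 4) by edgeR (-2.98 ± 0.52, adjusted p = 0.00623). *Slc7a8*, a transporter of neutral amino acids, had the smallest p, from 19.1, 18.9, 20.2 and 16.7 CPM to 7.05, 8.91, 8.75 and 7.28 CPM (-1.23 ± 0.15, adjusted p = 0.000517). *Rasd1*, a small GTPase induced by glucocorticoids, fell from 59.1, 55.8, 70.1 and 67.9 CPM to 16.7, 17.3, 18.7 and 32 CPM (-1.57 ± 0.23, adjusted p = 0.00248, lost without ZT 18 replicate 1 or 3). *Cx3cr1*, the fractalkine receptor of macrophages and monocytes, fell from 4.84, 8.26, 3.82 and 5.71 CPM to 2.21, 1.84, 1.20 and 0.388 CPM (-2.02 ± 0.38, adjusted p = 0.00956, lost without ZT 6 replicate 1, 2, 3 or 4 or ZT 18 replicate 1 or 3), while the macrophage marker sum overlapped between the times. *Tns2*, a focal adhesion protein (-1.10 ± 0.16, adjusted p = 0.00195, lost without ZT 18 replicate 3), and *Eepd1* (-0.98 ± 0.14, adjusted p = 0.00239, lost without ZT 6 replicate 1 or ZT 18 replicate 3) fell too. So did *Smim5* (-1.72 ± 0.30, adjusted p = 0.00623, lost without ZT 6 replicate 1 or 2 or ZT 18 replicate 1, 2 or 3) and *Cdc25b*, a cell cycle phosphatase (-0.96 ± 0.17, adjusted p = 0.00726, lost without ZT 6 replicate 1, 2, 3 or 4 or ZT 18 replicate 1, 2 or 3). Small but tight differences also reached the threshold. *Naa60*, an acetyltransferase, measured 34.1, 33, 30.5 and 29.2 CPM and 49.1, 47.6, 48 and 48 CPM (0.60 ± 0.068, adjusted p = 0.000447), and *Cpped1* (0.67 ± 0.079, adjusted p = 0.000517), *Vps13a* (0.59 ± 0.074, adjusted p = 0.000845) and *2810004N23Rik* (0.65 ± 0.080, adjusted p = 0.000705) rose by a like amount.

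The other time points of WT eWAT, ZT 10 and ZT 22, were measured in different libraries. Of the 106 genes that rose, 82 had their highest mean at ZT 18, 21 at ZT 22 and 3 at ZT 10, and 93 had their lowest mean at ZT 6. Of the 36 that fell, 26 were lowest at ZT 18 and 9 at ZT 22. Between ZT 22 and ZT 10, 435 genes (2.37%) passed in the same fit. The genes higher at ZT 18 had the same sign there in 81 of 106, with 30 past the threshold in the same direction and 2 in the other. Those lower at ZT 18 had it in 31 of 36, with 16 and none.

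Individual genes took different courses over the 4 times. *Nr1d1* averaged 96.7 ± 17.4 CPM (mean ± SD, n = 4, as for the other means here) at ZT 6, 74.5 ± 10.2 CPM at ZT 10, 3.88 ± 1.54 CPM at ZT 18 and 4.65 ± 1.30 CPM at ZT 22. *Dbp* was highest at ZT 10, with means of 49.7 ± 4.83, 103 ± 4.82, 8.63 ± 2.20 and 4.45 ± 0.741 CPM in the same order. *Arntl* had its lowest mean at ZT 10 (1.96 ± 0.379 CPM) and its highest at ZT 22 (60.9 ± 7.56 CPM). Some clock genes that did not pass between ZT 6 and ZT 18 did so between ZT 10 and ZT 22. *Tef* averaged 448 ± 21.9 CPM at ZT 10 and 96.2 ± 4.07 CPM at ZT 22 (log2 fold change -2.22, adjusted p = 7.12e-08), *Npas2* 0.420 ± 0.0708 CPM and 8.68 ± 0.683 CPM (4.36, adjusted p = 7.06e-06), and *Per3* 282 ± 21.5 CPM and 39.9 ± 5.69 CPM (-2.82, adjusted p = 7.12e-08). *Nampt* and *Tsc22d3* had the opposite form. Their means at ZT 10 and ZT 22 were close, 174 ± 19 and 197 ± 31.9 CPM for *Nampt* (0.18, adjusted p = 0.507) and 212 ± 49.8 and 222 ± 5.69 CPM for *Tsc22d3* (0.067, adjusted p = 0.881).

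**Figure D4:**
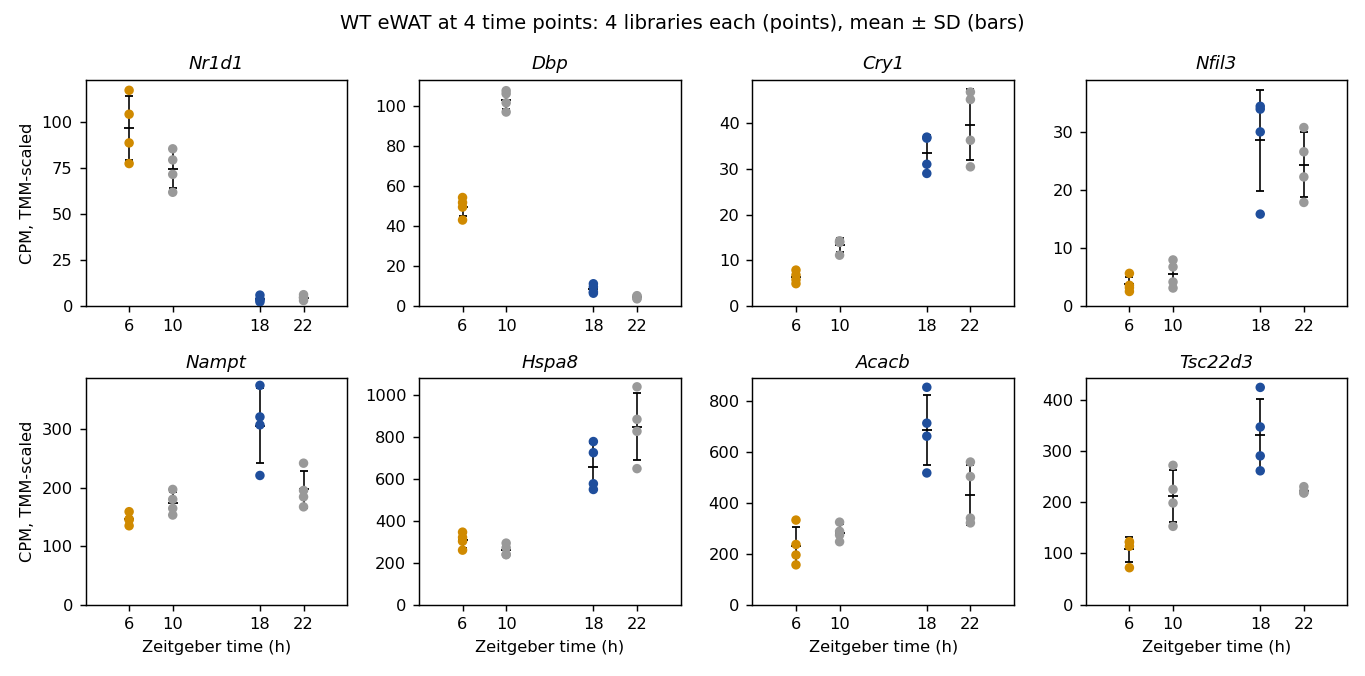
Levels of 8 genes in CPM (y axis, from 0) at ZT 6, ZT 10, ZT 18 and ZT 22 (x axis, hours) in WT eWAT, with 4 libraries per time as points and the mean ± SD as bars. *Nr1d1* and *Dbp* are high at ZT 6 and ZT 10, *Cry1*, *Nfil3* and *Hspa8* are high at ZT 18 and ZT 22, and *Nampt*, *Acacb* and *Tsc22d3* have their highest means at ZT 18.

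The same contrast in BAT of WT mice asked which changes differed between the depots. The difference of the 2 changes was tested over the 32 WT libraries, and 475 of 19020 genes (2.50%) passed. Of the genes that passed in eWAT, 80 of the 106 higher had the same sign in BAT (median log2 fold change 0.31) and 24 differed from BAT, and 24 of the 36 lower had the same sign (median -0.20) and 5 differed. Since these genes were picked by their change in eWAT, a smaller change elsewhere is partly built in. None of the 5 clock and output genes given next differed between the depots on this test, with or without ZT 18 replicate 4 of both depots. *Cry1* changed by 2.79 ± 0.16 in BAT, *Nfil3* by 2.85 ± 0.32 and *Nr1d2* by -1.97 ± 0.25, with differences of eWAT minus BAT of -0.41 ± 0.23, adjusted p = 0.306, 0.086 ± 0.44, adjusted p = 0.957 and 0.19 ± 0.35, adjusted p = 0.826. *Nr1d1* changed by -3.36 ± 0.25 in BAT (difference -1.24 ± 0.35, adjusted p = 0.0288) and *Dbp* by -3.25 ± 0.21 (difference 0.73 ± 0.28, adjusted p = 0.114). *Nampt* rose in both depots, by 0.96 ± 0.16 in BAT (difference 0.11 ± 0.23, adjusted p = 0.848).

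Of the 26 heat shock proteins and cochaperones, 6 differed between the depots, each with a negative difference of eWAT minus BAT, and 20 did not pass (7 differed without ZT 18 replicate 4 of both depots). Of the 26 ER chaperone and unfolded protein response genes, 4 differed, each with a positive difference (5 without those libraries). *Hspa8* measured 190.2, 203, 139.7 and 165 CPM in BAT at ZT 6 and 1023, 1022, 1038 and 1131 CPM at ZT 18, a larger change than in eWAT (difference of eWAT minus BAT -1.49 ± 0.25, adjusted p = 0.000316), and *Dnaja1* likewise (-0.66 ± 0.15, adjusted p = 0.00686). *Hsph1* (-1.28 ± 0.32, adjusted p = 0.0124), *Chordc1* (-0.54 ± 0.15, adjusted p = 0.028) and *Fkbp4* (0.032 ± 0.11, adjusted p = 0.925) missed the threshold. The ER chaperones *Hspa5* and *Hyou1*, which rose in eWAT, had log2 fold changes of -0.31 ± 0.11 and -0.28 ± 0.090 in BAT and differences of 0.91 ± 0.15, adjusted p = 0.000303 and 0.75 ± 0.13, adjusted p = 0.000428. *Asns* (1.08 ± 0.17, adjusted p = 0.000279), *Nr1h3* (0.98 ± 0.16, adjusted p = 0.000391), *Acacb* (1.21 ± 0.28, adjusted p = 0.00799) and *Arxes2* (1.25 ± 0.26, adjusted p = 0.0038) changed more in eWAT than in BAT, and the difference was negative for *Thra* (-0.67 ± 0.15, adjusted p = 0.00463) and *Eepd1* (-1.06 ± 0.18, adjusted p = 0.000428). Among genes that did not pass in eWAT alone, *Gpam* (1.46 ± 0.25, adjusted p = 0.000453) and *Nrg4* (1.31 ± 0.19, adjusted p = 5.97e-05) had a positive difference and *P4ha1*, a collagen prolyl hydroxylase (-1.19 ± 0.24, adjusted p = 0.00229), a negative one.

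The genes with the smallest p for the difference between depots did not pass in eWAT. CPM in BAT were scaled over the 32 WT libraries. *Kit*, the receptor of stem cell factor, measured 18, 10.8, 28.3 and 17.9 CPM at ZT 6 and 129, 152, 151 and 74.8 CPM at ZT 18 in BAT, and changed by -0.53 ± 0.14 in eWAT (difference -3.26 ± 0.35, adjusted p = 1.62e-06). *St6gal1* (-1.72 ± 0.17, adjusted p = 1.4e-06) and *Sh3bp4* (-1.92 ± 0.22, adjusted p = 2.29e-06) also had a negative difference, and *Coq10b* (1.39 ± 0.15, adjusted p = 1.62e-06), *Pex5* (1.21 ± 0.13, adjusted p = 1.91e-06) and *Ubtf* (1.24 ± 0.13, adjusted p = 1.62e-06) a positive one. *Slc7a8*, which fell in eWAT, missed the threshold for the difference (-3.25 ± 0.82, adjusted p = 0.014), with 1.09, 1.78, 1.40 and 27.5 CPM in BAT at ZT 18, and the difference was -0.81 (adjusted p = 0.0944) without ZT 18 replicate 4 of both depots. The BAT library of ZT 18 replicate 4 also stood apart, with 10.9% of genes more than 2-fold from the mean of the other 3, against 3.02% to 6.38% in the other 7 BAT libraries of ZT 6 and ZT 18. The labels do not say whether the depots came from the same mice. Without both libraries, an alternative chosen after seeing the data, 833 genes differed, and *Thra*, *Arxes2*, *Acacb* and *Dnaja1* were no longer among them (adjusted p from 0.0133 to 0.0171). Of the named genes, 5 differed there that had not done so with all libraries. These were *Hsph1* (difference -1.62, adjusted p = 0.000308), *Tsku* (1.86, adjusted p = 0.000819), *Cth* (2.00, adjusted p = 0.0026), *Lep* (-2.43, adjusted p = 0.00211) and the clock gene *Cry2* (-0.85, adjusted p = 0.00671). Without 1 eWAT library at a time, 307 (ZT 18 replicate 3 left out) to 752 (ZT 18 replicate 4) genes differed, and 310.0 with ZT 18 replicate 1 left out.

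In eWAT of FANKO mice the same contrast asked which of the changes were altered without adipocyte *Nampt*. *Nampt* itself measured 123, 130.1, 139 and 124 CPM at ZT 6 and 128, 119.6, 138 and 129.9 CPM at ZT 18 in the FANKO libraries, against 127, 133, 148 and 135 CPM and 350.3, 207, 297 and 284 CPM in WT eWAT, all scaled over the 32 eWAT libraries. The counts cover the whole gene, the deleted exon and the others alike, and cells without Cre keep the gene. It did not rise at ZT 18 as it did in WT tissue (log2 fold change -0.0028 ± 0.11, difference of WT minus FANKO 1.07 ± 0.16, adjusted p = 0.000513). Over the 32 eWAT libraries, 51 of 19059 genes (0.268%) differed in their change. Of the genes that passed in WT eWAT, 93 of 106 higher and 33 of 36 lower had the same sign in FANKO eWAT, with medians of 0.32 and -0.48, and 7 and 3 differed. As for BAT, these genes were picked by their change in WT eWAT. A smaller change in FANKO eWAT, and a difference from it, is therefore partly built in.

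Among clock genes, *Dbp* and *Cry1* changed less in FANKO eWAT. *Dbp* measured 28, 43.4, 38.7 and 36.9 CPM and 20.4, 20.03, 25.3 and 15.1 CPM there, without overlap (-0.86 ± 0.19, difference -1.67 ± 0.27, adjusted p = 0.00175). *Cry1* measured 14.6, 13.7, 17.3 and 17.1 CPM and 36.2, 43.7, 33.5 and 37.4 CPM (1.27 ± 0.14, difference 1.10 ± 0.20, adjusted p = 0.00395). *Nr1d1* (-4.18 ± 0.27, difference -0.42 ± 0.36, adjusted p = 0.656), *Nfil3* (2.31 ± 0.28, difference 0.62 ± 0.40, adjusted p = 0.501) and *Arntl* (1.00 ± 0.23, difference 0.61 ± 0.33, adjusted p = 0.398) did not differ on this test. *Irs3*, an adaptor of the insulin receptor, rose in WT eWAT from 37.5, 27, 38.9 and 33.1 CPM to 46.8, 56, 65.1 and 58.8 CPM (0.74 ± 0.12, adjusted p = 0.00363, lost without ZT 6 replicate 1, 2 or 4 or ZT 18 replicate 3) and measured 54.1, 42.9, 31.4 and 45.2 CPM and 28.6, 25.7, 26.6 and 28.6 CPM in FANKO eWAT (difference 1.40 ± 0.19, adjusted p = 0.000155).

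Larger differences came from genes that did not pass in WT eWAT. *Angptl4*, which inhibits lipoprotein lipase and rises with fasting, measured 236, 281, 259 and 199 CPM at ZT 6 and 272, 265, 267 and 411 CPM at ZT 18 in WT eWAT, but 720.4, 488, 398 and 508 CPM and 73.6, 59.8, 96.5 and 100.5 CPM in FANKO eWAT (difference 3.00 ± 0.35, adjusted p = 1.99e-05). *Rsad2*, an interferon-stimulated gene, measured 287, 160.3, 489 and 231 CPM and 38.8, 74.5, 52.1 and 62.8 CPM in FANKO eWAT and 14.9, 9.47, 12.5 and 18.1 CPM and 32.1, 18.4, 19.9 and 14.8 CPM in WT eWAT (difference 2.99 ± 0.59, adjusted p = 0.00887). *Ifrd1* (1.45 ± 0.15, adjusted p = 3.64e-06), *Rnf125* (1.73 ± 0.21, adjusted p = 3.79e-05) and *Ankef1* (1.12 ± 0.15, adjusted p = 0.000108) also differed, as did *2810004N23Rik* (0.91 ± 0.12, adjusted p = 8.86e-05), which had passed in WT eWAT. All 4 had a positive log2 fold change in WT eWAT and a negative one in FANKO eWAT. In place of 51, 147 genes differed without ZT 18 replicate 4 of WT eWAT, 31 without ZT 6 replicate 2 and 25 without ZT 6 replicate 4.

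**Figure D5:**
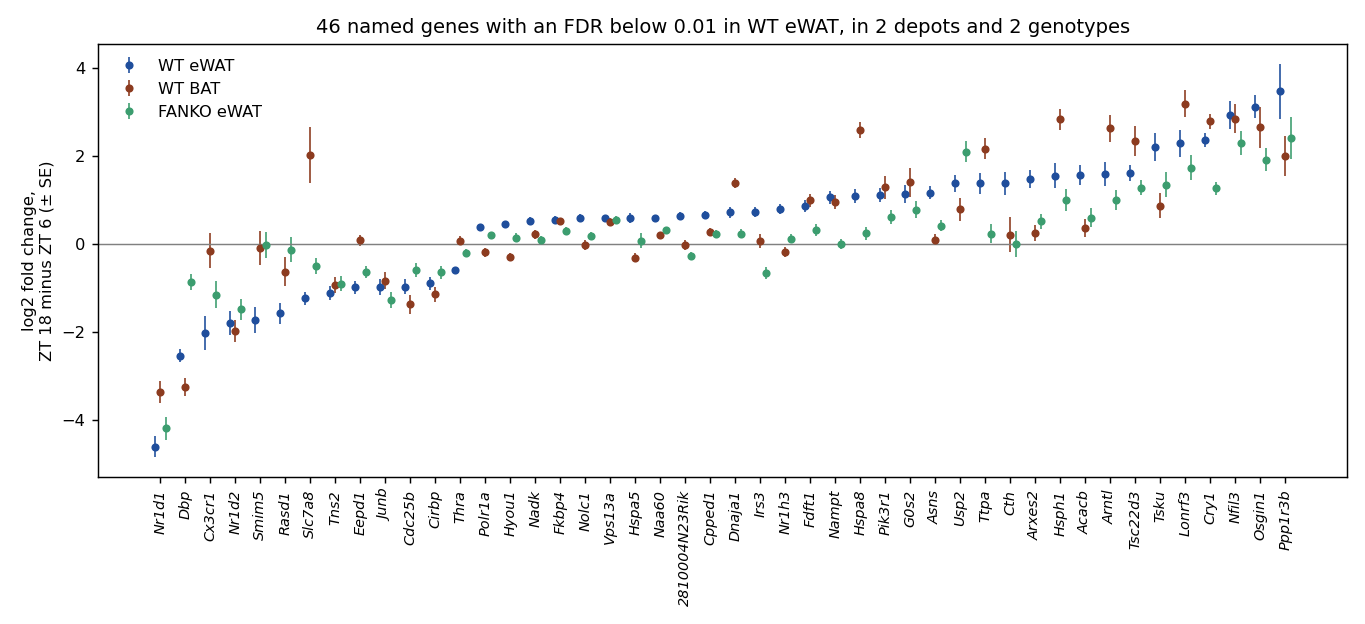
Log2 fold change of ZT 18 over ZT 6 ± standard error for 46 named genes with an FDR below 0.01 in WT eWAT, ordered by their value there, in WT eWAT, WT BAT and FANKO eWAT. *Hspa8* and *Dnaja1* lie higher in WT BAT than in WT eWAT, *Nampt* lies near 0 in FANKO eWAT, and *Slc7a8* has a wide bar in WT BAT, where ZT 18 replicate 4 is far above the other 3 libraries.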

How the data were processed

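RNA from eWAT of WT mice at ZT 6 and ZT 18 (4 libraries each) was analysed, with the other WT eWAT, WT BAT and FANKO eWAT libraries where stated. The authors prepared TruSeq Stranded Total RNA libraries with Ribo-Zero Gold depletion, sequenced paired-end reads, aligned them with STAR 2.5.3a to GRCm38.p5 and counted with featureCounts 1.5.3 on GENCODE annotation. FastQC 0.11.5 and MultiQC 1.2 are named in the submitters' processing notes. They deposited whole-number read counts per gene, without normalization, in 1 column per library. The strand and multi-mapping options of the counting are not given in the sources used here, so overlapping, antisense and near-identical genes may share or lose reads.

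Counts were analysed as deposited in R 4.3.3 with edgeR 4.0.16, limma 3.58.1 and DESeq2 1.42.0, and figures were drawn in Python 3.11.15 with matplotlib 3.10.9. Groups came from the labels. Of 52636 genes, the 18393 kept by filterByExpr (minimum count 10, minimum total 15) were tested, and 34243 were not. Library sizes were scaled by TMM, and the quasi-likelihood test compared ZT 18 with ZT 6 in a fit of the 16 WT eWAT libraries, which share 1 estimate of the spread. An FDR below 0.01, the threshold of the study, was used throughout. Standard errors were derived from the fold change and its F statistic. CPM are TMM-scaled, and log2 CPM used a prior count of 2. Differences of the change from BAT and FANKO eWAT were interaction terms over 32 libraries each. Marker sums were compared by exact two-sided permutation tests. Gene coordinates came from GENCODE M21 on GRCm38, which may differ from the authors' annotation release, and 52489 of the genes had a symbol there. Total counts of 9542604 to 22476129 set the counting precision, and no 2 libraries of a group were closer than a chi-square of 14.0 per degree of freedom, so none was treated as a duplicate. The fits were tested on simulated data with 200 changed genes. Simulated counts varied independently from gene to gene, and no library was made to stand apart as ZT 18 replicate 4 did. The shares recovered may therefore not hold for the real libraries. The contrast of ZT 18 and ZT 6 recovered 45.5% of 2-fold and 84% of 4-fold changes. The difference from BAT recovered 33.7% and 70.8%, and that from FANKO eWAT 40% and 66%. A gene that did not pass may therefore still have changed.

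Genes were named by a rule: all tested core clock and output genes, up to 3 genes per direction and other list by p (or the 2 smallest p where none passed), the 12 largest rises and falls among protein-coding genes without overlap whose mean log2 CPM reached 1, the 12 smallest p, the 6 smallest p of each interaction among protein-coding genes, and *Nampt*, *Adipoq* and *Lep*. A few genes that the rule or the lists hold entered the fits and counts but are not reported here. Other list members were named to describe a list, and were chosen after their values were seen. The contrast, the lists and the rule were chosen with earlier results of these data known. Other sets of samples, tools, scalings and filters, the replicate number as a block and leaving out each library were tried as alternatives.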

Additional observations from a re-analysis of the deposited data

Results flagged for a closer look

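Of 252 groups of 4 libraries examined, 23 had 1 library far from the other 3, by a gap to its nearest neighbour that took a share of the group's whole range above Dixon's 95% critical value. The values below are those shares. Chance gives this in about 1 of 20 groups. ZT 18 replicate 4 was the distant library in 8 of the 23, ZT 18 replicate 2 in 5, ZT 18 replicate 3 in 1, and ZT 6 libraries in 9. ZT 18 replicate 4 was low for *Ppp1r3b* (share of the range 0.928), *Angptl8* (0.850), *Fbxl21* (0.913) and the de novo lipogenesis median (0.872). It was high for *Per2* (0.935), *Angptl4* (0.941), *Tns2* (0.852) and the mesothelium marker sum (0.927). ZT 18 replicate 2 was low for *2810004N23Rik* (0.918), *Nadk* (0.850), *Slc25a20* (0.925), *Adipoq* (0.968) and the mature adipocyte marker sum (0.911), and ZT 18 replicate 3 was low for *Mcm7* (0.859).

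At ZT 6, replicate 2 was high for *Usp2* (0.929) and low for *mt-Co1* (0.859), for de novo lipogenesis (0.844) and for cholesterol synthesis (0.933). Replicate 4 was low for *Tsc22d3* (0.858) and for clock output genes (0.906) and high for T and NK cell markers (0.886). Replicate 1 was high for *Cdc25b* (0.833), and replicate 3 was high for ribosome biogenesis genes (0.928).

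Several named genes changed differently in WT eWAT and in another group by the test of the interaction. Given as the log2 fold change of ZT 18 over ZT 6 in WT eWAT minus that in FANKO eWAT, the differences were -1.67 for *Dbp*, 1.10 for *Cry1*, 0.91 for *2810004N23Rik*, 1.07 for *Nampt*, 1.40 for *Irs3*, 1.45 for *Ifrd1*, 1.73 for *Rnf125*, 1.12 for *Ankef1*, 2.99 for *Rsad2* and 3.00 for *Angptl4*. Against WT BAT, the positive differences were 1.08 for *Asns*, 0.67 for *2810004N23Rik*, 1.25 for *Arxes2*, 0.98 for *Nr1h3*, 1.21 for *Acacb*, 0.75 for *Hyou1*, 0.91 for *Hspa5*, 1.31 for *Nrg4*, 1.46 for *Gpam*, 1.39 for *Coq10b*, 1.21 for *Pex5* and 1.24 for *Ubtf*. The negative ones were -0.67 for *Thra*, -1.49 for *Hspa8*, -1.06 for *Eepd1*, -0.66 for *Dnaja1*, -1.19 for *P4ha1*, -3.26 for *Kit*, -1.72 for *St6gal1* and -1.92 for *Sh3bp4*.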

How the results depend on the processing

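The count of genes past the threshold was 142 (106 higher and 36 lower). It was 6 (3 and 3) with the 8 libraries alone, 606 (448 and 158) with all 64 libraries, 661 (454 and 207) with DESeq2, 55 (28 higher) with scaling by library size alone and 865 (572 and 293) at an FDR below 0.05. It stayed within 1.5 times, from 119 to 171, with limma-voom, RLE factors, no filter on low counts, a CPM of at least 1 in 4 libraries, robust dispersion, no genes of the mitochondrial genome and, added after seeing the data, the mitochondrial share as a covariate or without both ZT 18 replicate 2 and ZT 6 replicate 4 (143, of which 80 were among the 142). The share of higher genes moved from 74.6% to 61.8% without ZT 18 replicate 4, 63.0% without ZT 6 replicate 4 and 50.9% with library size alone. Leaving out 1 library gave 31 to 432 genes (25 to 267 higher, 6 to 165 lower), lowest without ZT 18 replicate 3 and highest without ZT 18 replicate 4, which stood apart from its group. It gave 307 to 752 genes in place of 475 for the difference from BAT, and 25 to 147 in place of 51 for that from FANKO eWAT. At an FDR below 0.05, these were 1302 and 197, and 833 differed from BAT without ZT 18 replicate 4 of both depots. The cause was not tested.

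With the replicate number as a block, 302 genes passed (226 and 76), 585 differed from BAT and 66 from FANKO eWAT. Of the 47 named genes that passed, the block ended the call of 1, *Hsph1* (adjusted p = 0.0125). The other settings ended 42 (the 8 libraries alone), 19 (library size alone), 12 (without both ZT 18 replicate 2 and ZT 6 replicate 4), 6 (limma-voom: *Tsku*, *Arntl*, *Smim5*, *Ppp1r3b*, *Hsph1* and *Cth*), 4 (robust dispersion, with *Ppp1r3b*, *Hsph1* and *Cth* among them), 2 (all 64 libraries), 2 (no genes of the mitochondrial genome) and 1 (no filter on low counts). Libraries of ZT 6 and ZT 18 with the same number shared deviations with r from 0.036 to 0.252. These were above 0 in each of the 4 pairs but not over 0.1 in every pair. The main fit did not pair libraries by number, so its p values leave out whatever same-number libraries share. What they share was not tested. Of the 8 libraries, 6 correlated best with their own number.

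Among named genes, only values that had not passed changed sign. Without 1 library at a time, *Rora* ranged from -0.16 (without ZT 18 replicate 4) to 0.24, *Bhlhe40* from -0.36 to 0.19 (without ZT 18 replicate 4), *Tef* from -0.15 to 0.060 (above 0 without ZT 6 replicate 1 or 2 or ZT 18 replicate 2 or 3) and *Sh3bp4* from -0.10 to 0.15 (below 0 without ZT 6 replicate 2 or ZT 18 replicate 2 or 4). *Tef* was 0.0053 without the filter on low counts, and *Sh3bp4* was -0.078 with library size alone and -0.020 without both ZT 18 replicate 2 and ZT 6 replicate 4. With 4 libraries a group and 12 residual degrees of freedom, a modest change of a gene with a wide spread could not be detected.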
